A study of Mus musculus with 6 samples.

Results

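The 35 genes described here encode structural and regulatory components of the extracellular matrix, the protein scaffold outside cells. They were taken by symbol from the gene annotation shared by both sequencing pools and make up 35 of the 32285 genes counted. By role they are 5 chains of the fibril-forming collagens I, III and V, both chains of the basement membrane collagen IV, 3 chains of the beaded-filament collagen VI, Col12a1 and Col18a1. The others are proteoglycans and collagen binders (Dcn, Lum, Bgn, Sparc), fibronectin, elastic fibre and microfibril genes, matricellular genes, the lysyl oxidases, the laminins with Nid1, the calcification inhibitor Mgp, Timp3, Fstl1 and the collagen chaperone Serpinh1.

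Fibril-forming collagens are built from 3 chains, folded in the endoplasmic reticulum with the help of Serpinh1 (also known as Hsp47), trimmed outside the cell and cross-linked by lysyl oxidases. Basement membranes are sheets of laminin and collagen IV held together by nidogen. Matricellular proteins such as periostin, tenascin-C and the thrombospondins bind matrix and receptors without being its main load-bearing part. In tumours this scaffold is mostly attributed to fibroblasts and other stromal cells, while macrophages and monocytes can contribute single components such as fibronectin and thrombospondin-1.

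The data are single-cell RNA and surface antibody counts (CITE-seq, 10x 3′ chemistry) of CD45-sorted cells from subcutaneous YUMM1.7 tumours, a mouse melanoma line of which 250000 cells were injected. The hosts were female C57BL/6J mice, 8 weeks old, and all carried floxed alleles of Nr3c1, the gene of the glucocorticoid receptor. LysM-Cre mice (GRf/f-LysMCre) carried in addition Cre under the promoter of the myeloid gene Lyz2, whereas floxed mice (GRf/f) did not. Each genotype was split between anti-PD-1 and an isotype antibody (12.5 mg/kg, 2 doses a week for 3 weeks from about day 7, tumours taken on day 28), which gave LysM-Cre anti-PD-1, floxed anti-PD-1, LysM-Cre isotype and floxed isotype groups of 4 mice each, 2 of each group in each of the pools E5 and E6.

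Mice were told apart by hashtag antibodies, which gave 17239 cells with 1 clear hashtag, between 134 and 3098 per mouse, and 1546045 to 29701640 gene UMIs (unique molecular identifiers, 1 per captured transcript) per mouse. The pools differed little in depth, with a median of 8475 gene UMIs per barcode in E5 and 8905 in E6. Of the barcode sequences, 789 occurred in both pools, and 187 assigned cells (1.08%) and 116 of the stromal-like cells (11.97%) carried such a sequence. Without these cells, again 0 of the 35 genes were called in each of the 15 comparisons described below. One library stood apart in size: floxed anti-PD-1 mouse 2 had 134 cells, of which 3 were stromal-like, so it left the fits of stromal-like and monocyte-like cells and the floxed anti-PD-1 group had 3 mice there. Nr3c1, the targeted gene, had 22.8 to 73.5 CPM (UMIs per 1000000 gene UMIs of a mouse's cells in that class) in macrophage-like cells of 8 LysM-Cre mice, against 48.5 to 79.6 CPM in 8 floxed mice. The medians were 26.5 CPM in LysM-Cre and 56.5 CPM in floxed mice, and 1 LysM-Cre mouse lay within the floxed range, the next highest LysM-Cre value being 33.7 CPM. In stromal-like cells it had 75.7 to 108 CPM in 8 LysM-Cre mice, against 67.2 to 98.4 CPM in 7 floxed mice. UMIs of the 3′ end do not show whether the floxed part of the gene was deleted.

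Cells were clustered without the 35 genes, and clusters were named by lists of markers that hold none of them. A single cluster of 969 cells, 5.62% of the cells and 15.3% of the gene UMIs, was stromal-like. Its cells carried Pdgfra (88.03% with a UMI), a growth factor receptor of fibroblasts, Prrx1 (94.9%) and Twist1 (87.0%), transcription factors of mesenchymal cells, and Cald1 (97.6%), and 9 of the 12 stromal markers were found in at least 10% of them. Tcf21 was at 0, and Meg3 and Cdh11 were each found in 0.929% of the cells. Podoplanin, a surface protein of fibroblasts, reached 90675 ± 31703 per 1000000 antibody UMIs on stromal-like cells (SD, n = 15 mice), against 7543 ± 3700 on macrophage-like cells (SD, n = 16). The myeloid surface protein CD11b was also high on stromal-like cells, at 109085 ± 51948. It was at 244670 ± 30242 on macrophage-like cells and 35724 ± 13195 on lymphocytes (n = 15).

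Some markers of other cell types were also found in that cluster, and where this RNA came from was not tested. All 10 macrophage markers were found in at least 10% of stromal-like cells, Ptprc, which encodes the CD45 used for the sort, in 33.4%. Of the 8 pericyte markers Cspg4 was found in 50.6% and Acta2 in 25.2% of the cells, and the other 6, among them Rgs5, Myh11 and Tagln, in 0.103% to 6.09%. Melanocyte genes were near 0, with Tyr at 0, Mlana, Dct, Sox10 and Tyrp1 in 0.103% and Pmel in 0.929% of the cells, while Mitf was found in 19.1%. None of the 8 endothelial markers reached 10%. A UMI of a Y-linked gene was found in 50.7% of stromal-like cells, against 0.683% of macrophage-like and 0.510% of monocyte-like cells, although the hosts were labelled female. By mouse, that share ran from 10.8% in floxed isotype mouse 2 to 74.7% in LysM-Cre isotype mouse 4, leaving aside the 3 cells of floxed anti-PD-1 mouse 2. Xist, an RNA of female cells, was found in 10.5% of the 781 stromal-like cells outside the sub-clusters with immune RNA described below. Inside those sub-clusters it was found in 85.1% of the cells. The share was 86.7% in macrophage-like, 91.3% in monocyte-like and 31.7% in neutrophil-like cells. Whether the stromal-like cells came from the host or from the injected line was not tested.

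Of the 779115 UMIs of the 35 genes in assigned cells, 86.3% were in stromal-like cells, and Mgp alone held 47.3%. In the source of their UMIs, 31 of the 35 genes lay between 91.7% and 97.2% in stromal-like cells, pooled over mice. As a mean over mice with at least 10 UMIs of the gene, 3 of the 31 fell below 90%, namely Col4a2 at 83.4% ± 22.8 (SD, n = 14, lowest 27.3%), Tnc at 85.9% ± 15.8 (n = 11, lowest 46.7%) and Col4a1 at 86.2% ± 16.1 (n = 15, lowest 40%). The exceptions in the pooled shares were Thbs1, with 2.82% of 37015 UMIs in stromal-like cells, Fn1 with 44.0% of 75101, Lamc1 with 67.6% of 4332 and Loxl2 with 15.8% of only 203. The 35 genes together made up 2.62% ± 0.471 of the UMIs of stromal-like cells (SD, n = 15 mice), 0.0637% ± 0.0271 of macrophage-like cells (n = 16), 0.138% ± 0.0483 of monocyte-like cells (n = 15) and 0.0242% ± 0.00776 of lymphocytes (B, T and NK-like cells together, n = 15). Because the classes were cut from the same cells, differences between classes are given without a test.

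**Figure D1:**
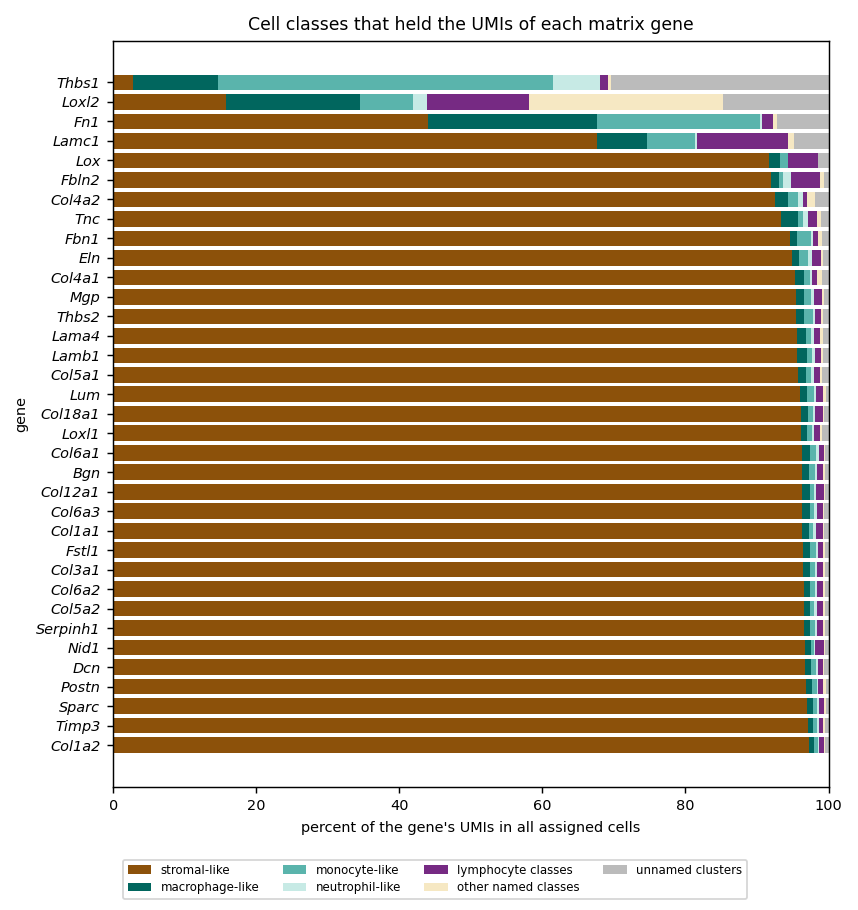
Percent of each gene's UMIs (horizontal axis) by cell class, pooled over assigned cells, for the 35 genes down the page. The stromal-like part of the bar takes over 90% in 31 genes, and it is smallest for Thbs1 (2.82%), Loxl2 (15.8%), Fn1 (44.0%) and Lamc1 (67.6%).

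Levels in stromal-like cells are given as the mean ± SD over 15 mice. UMIs count 1 end of each transcript, so CPM of different genes are compared without a length term. Mgp, which encodes a small secreted inhibitor of calcification (chromosome 6, 136872435 to 136875823 in RefSeq's GRCm38.p6), was the most abundant at 14292 ± 4317 CPM. Among the fibril-forming collagens, Col3a1, the chain of collagen III, had 1342 ± 331 CPM and Col1a2, the alpha-2 chain of collagen I, 1300 ± 269, while Col1a1, the alpha-1 chain of collagen I, had 430 ± 156, Col5a2 235 ± 56.4 and Col5a1 115 ± 32.0. The spreads of Col3a1 and Col1a2 overlapped almost fully, and both lay above the 3 other chains.

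Of the collagens that do not form the main fibrils, Col18a1, a basement membrane collagen from which endostatin is cut, had 379 ± 65.5 CPM. The collagen VI chains had 362 ± 108 (Col6a3), 254 ± 74.2 (Col6a1) and 116 ± 46.1 CPM (Col6a2). Collagen IV was low and varied widely between mice, with Col4a1 at 108 ± 77.0 CPM (4.85 to 240) and Col4a2 at 37.8 ± 23.7. Col4a1 and Col4a2 lie head to head on opposite strands of chromosome 8, with start sites 20 bases apart and overlapping bounds in the annotation. The UMIs count the 3′ end, which lies away from these starts in both genes. Col12a1, whose collagen sits on the surface of fibrils, had 62.6 ± 30.1 CPM.

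Among the proteoglycans and collagen binders, Bgn, the biglycan gene, had 1577 ± 250 CPM and Sparc, whose product binds collagen and regulates its deposition, had 1174 ± 157. Dcn, the decorin gene, had 643 ± 437 CPM with a range of 135 to 1994 over mice, and Lum, the lumican gene, had 87.7 ± 107 with a range of 24.3 to 435. Bgn and Sparc thus varied little between mice beside their levels, and Dcn and Lum varied widely. Decorin, lumican and biglycan are small leucine-rich proteoglycans that bind collagen fibrils.

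Fn1, the fibronectin gene (chromosome 1, 71585473 to 71653280 in the same build), had 1339 ± 311 CPM, close to Col3a1 and Col1a2. The elastic fibre and microfibril genes were lower, with Fbn1 (fibrillin-1) at 98.5 ± 39.0, Eln (elastin) at 19.2 ± 15.2 and Fbln2 (fibulin-2) at 5.81 ± 8.41 CPM. Postn, the periostin gene, led the matricellular genes at 245 ± 153 CPM (24.2 to 524), ahead of Thbs1 at 41.9 ± 29.0, Thbs2 at 35.7 ± 14.5 and Tnc at 28.6 ± 47.8. The SD of Tnc and of Fbln2 exceeded the mean.

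Of the lysyl oxidases, which cross-link collagen and elastin, Loxl1 had 141 ± 24.9 CPM, Lox 13.6 ± 8.75 and Loxl2 0.792 ± 0.893, the lowest of the 35. Serpinh1 had 411 ± 67.5 CPM. Laminins and Nid1, the nidogen-1 gene, had 191 ± 30.1 (Lamb1), 146 ± 43.2 (Nid1), 109 ± 21.4 (Lamc1) and 55.3 ± 26.1 CPM (Lama4). Timp3, a metalloproteinase inhibitor held in the matrix, had 438 ± 248 CPM (106 to 930), and Fstl1, a secreted glycoprotein of mesenchymal cells, had 354 ± 74.9.

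**Figure D2:**
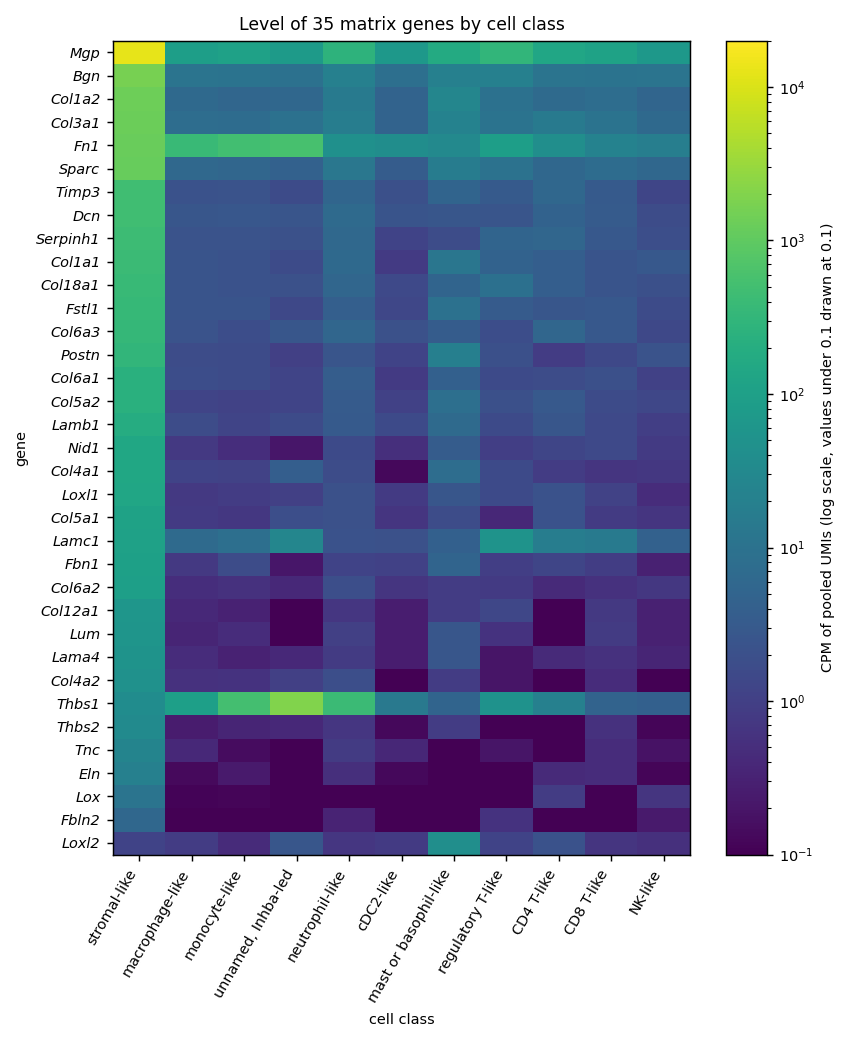
Heat map of the pooled level of each of the 35 genes (rows) in each cell class (columns), in CPM on a log scale. The stromal-like column is the brightest for all rows but Thbs1 and Loxl2, and the rows of Fn1 and Thbs1 also stand out in macrophage-like, monocyte-like and the Inhba-led cells.

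Promoter sequences are shown for Col1a2, Col3a1 and Bgn, whose UMIs varied together from cell to cell, and for Postn, whose level ranged widely over the sub-clusters of stromal-like cells. In 781 stromal-like cells outside the sub-clusters with immune RNA, Pearson's r across cells of depth-scaled log values was 0.745 for Col3a1 and Col1a2, 0.658 for Bgn and Col3a1 and 0.601 for Postn and Col3a1. Over the 300 pairs of the 25 genes found in at least 50% of these cells the median r was 0.337 and 290 pairs were positive. The highest was 0.748 for Col5a2 and Col3a1, followed by 0.728 for Col6a2 and Col6a1 after the Col3a1 and Col1a2 pair, and the lowest were −0.212 for Dcn and Col4a1 and −0.174 for Timp3 and Dcn. These cells share libraries, mice and depth, so the values are a description. Each sequence below is the 250 bases before the annotated start on the plus strand, 5′ to 3′, from RefSeq (GRCm38.p6), with matches on either strand to the AP-1 motif TGANTCA, the CCAAT box, the GC box GGGCGG or the TATA motif TATAAA in capitals.
Col1a2, chr6:4505368-4505617: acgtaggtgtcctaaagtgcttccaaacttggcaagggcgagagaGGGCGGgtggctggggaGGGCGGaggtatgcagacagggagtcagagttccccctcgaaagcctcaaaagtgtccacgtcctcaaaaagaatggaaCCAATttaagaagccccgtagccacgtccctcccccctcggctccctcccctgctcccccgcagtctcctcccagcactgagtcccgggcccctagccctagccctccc
Col3a1, chr1:45311288-45311537: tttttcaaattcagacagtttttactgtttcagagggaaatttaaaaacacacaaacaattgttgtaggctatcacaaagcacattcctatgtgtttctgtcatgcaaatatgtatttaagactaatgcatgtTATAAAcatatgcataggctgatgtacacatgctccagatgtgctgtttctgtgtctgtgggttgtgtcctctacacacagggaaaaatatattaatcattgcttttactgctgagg
Bgn, chrX:73483351-73483600: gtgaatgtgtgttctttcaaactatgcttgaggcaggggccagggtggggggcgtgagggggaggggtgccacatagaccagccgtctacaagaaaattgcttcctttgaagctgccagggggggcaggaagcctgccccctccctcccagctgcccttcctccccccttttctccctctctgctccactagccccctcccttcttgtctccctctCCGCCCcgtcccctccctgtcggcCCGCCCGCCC
Postn, chr3:54359017-54359266: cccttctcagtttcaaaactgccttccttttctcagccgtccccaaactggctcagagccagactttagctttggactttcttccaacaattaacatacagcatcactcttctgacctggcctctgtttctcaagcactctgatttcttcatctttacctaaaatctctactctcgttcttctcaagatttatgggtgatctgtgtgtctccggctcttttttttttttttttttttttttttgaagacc

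Col1a2 held 1 CCAAT and 2 GGGCGG, Col3a1 held 1 TATAAA, Bgn held 3 GGGCGG on the minus strand, counting overlapping matches, and Postn held none of the 4 motifs. A promoter was on file for 21 of the 35 genes. Of these, 14 held GGGCGG against 32.7% of the 32851 promoters on file, 7 held CCAAT against 33.8%, 3 held TATAAA against 12.4% and 1 held TGANTCA against 6.75%. A match describes the letters only, and no match says only that the letters are not in this window.

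Stromal-like cells were not uniform in the 35 genes. They fell into 8 sub-clusters, again made without the 35 genes. In 2 of these, with 188 cells (19.4%), over 50% of the cells had a Ptprc UMI, and these are called the sub-clusters with immune RNA. Sub-cluster 2 (151 cells) was led by the red cell gene Hbb-bs with Lyz2 and Chil3, and sub-cluster 8 (37 cells) by Gzmc and Xcl1. The largest of the other 6 was sub-cluster 1, with 209 cells led by Kif26b, Mfap4 and Ogn, and 87 of these cells (41.6%) came from floxed isotype mouse 2. Sub-cluster 3 had 132 cells with Fibin and Itm2a among their leading genes. Sub-cluster 4 was led by Il11, Ereg and Ptgs2 (130 cells), sub-cluster 5 by the DNA replication genes Ccne2 and Mcm5 (124), sub-cluster 6 by the interferon-response genes Ifit1 and Ifit3 (114) and sub-cluster 7 by the mitosis gene Cenpf (72). A Y-linked UMI was found in 26.8% of the Kif26b-led cells, against 73.5% of the cells of sub-cluster 3.

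The share of UMIs from the 35 genes was 4.97% in sub-cluster 3, 2.93% in Il11-led cells, 2.76% in Ifit1-led cells, 2.67% in Kif26b-led cells, 1.47% in Cenpf-led cells and 1.21% in the replication-gene cells. Mgp was highest in sub-cluster 3 at 32097 CPM and lowest in replication-gene cells at 5127, and Col3a1 had its highest level 5.34 times its lowest. Postn was highest in Kif26b-led cells at 877 CPM and lowest in replication-gene cells at 31.1. Fn1 and Tnc were highest in Il11-led cells, at 2336 and 135 CPM.

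Genes of the elastic and small-proteoglycan groups ran from 53.4 CPM in sub-cluster 3 to 0.750 in replication-gene cells for Eln and from 267 in sub-cluster 3 to 4.02 in Cenpf-led cells for Lum. Fbln2 was highest in Ifit1-led cells at 36.1 CPM. Sparc (1.29 times), Lamc1 (1.40), Col18a1 (1.47) and Serpinh1 (1.5004) differed least between the highest and the lowest sub-cluster. Sub-clusters were drawn from the same cells, so none of these differences has a test.

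**Figure D3:**
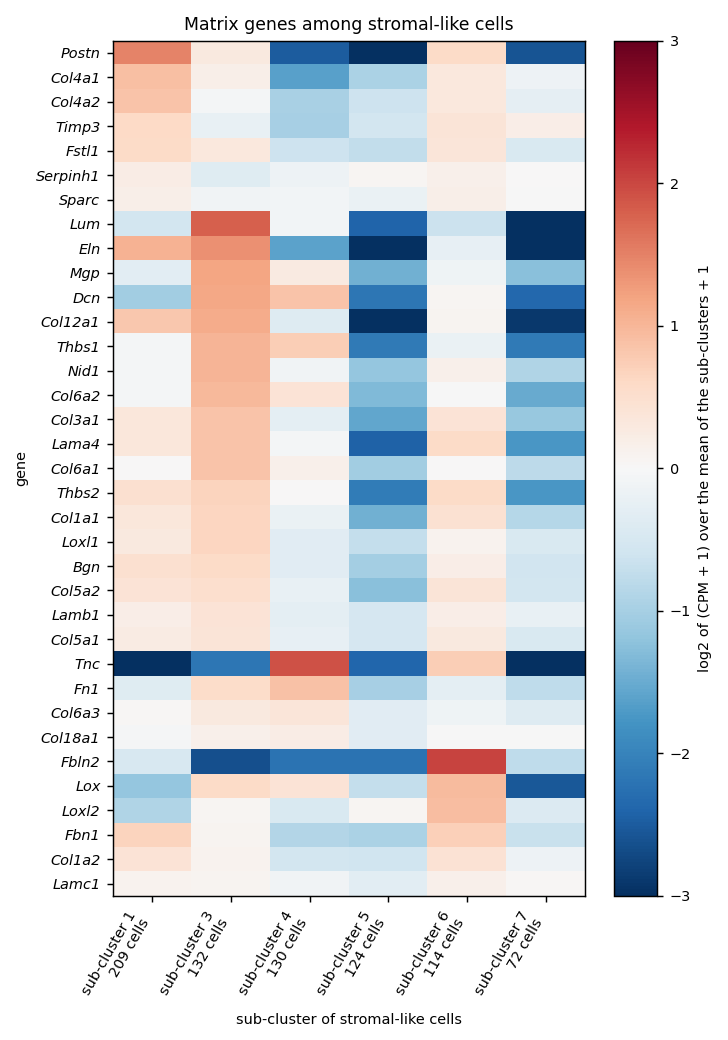
Level of each gene (rows) in the 6 stromal-like sub-clusters without immune RNA (columns), as log2 of its CPM over the mean of the 6. Many rows are highest in the column of sub-cluster 3 and lowest in that of sub-cluster 5 (replication genes), while Postn is high in sub-cluster 1 (Kif26b-led, 877 CPM) and Tnc in sub-cluster 4 (Il11-led, 135 CPM).

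Outside the stromal-like cells, most of the 35 genes were low, at levels that differed between classes. For the 31 genes with over 90% of their UMIs in stromal-like cells, the summed UMIs per barcode were 610 in E5 and 697 in E6 in stromal-like cells, 1.53 and 2.45 in macrophage-like cells, 1.31 and 2.37 in monocyte-like cells and 1.12 and 1.90 in lymphocytes. Mast or basophil-like cells had 3.38 in E5 and 1.02 in E6, and the other classes ran from 0.708 and 1.30 in CD4 T-like cells to 2.39 and 2.72 in regulatory T-like cells. Pool E6 was the higher in each class but the mast or basophil-like cells. The median gene's level in a class over its stromal-like level was 0.530% in E5 and 0.828% in E6 for macrophage-like cells, 0.489% and 0.848% for monocyte-like cells and 0.521% and 1.01% for lymphocytes.

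Ratios were read in the classes with at least 100 cells per pool, and for genes with enough UMIs. Only Fn1, Thbs1 and Lamc1 then lay at least 3-fold above the class median in both pools. Fn1 was 57.6-fold (E5) and 42.2-fold (E6) above it in macrophage-like cells and 77.7-fold and 55.9-fold in monocyte-like cells. Thbs1 was 395-fold and 346-fold above it in macrophage-like cells and 3128-fold and 1485-fold in monocyte-like cells. Lamc1 was 66.6-fold and 44.0-fold above it in regulatory T-like cells. Loxl2, with 32 UMIs in stromal-like cells, had too few for such a ratio. Its pooled level was 1.16 CPM in stromal-like cells and 0.727 CPM in the largest macrophage-like cluster. It was 45.6 CPM, from 48 UMIs, in a mast or basophil-like cluster of 178 cells.

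Mgp, in contrast, was found in 19.2% of lymphocytes thinned to 2000 gene UMIs, a cell type in which it would be read as background, and in 18.5% of macrophage-like and 17.2% of monocyte-like cells, against 91.3% of stromal-like cells. The unthinned shares were 98.8% of stromal-like cells and 45.2% of lymphocytes, with median depths of 25171 gene UMIs in stromal-like cells and 5769 (E5) and 5895 (E6) in lymphocytes. Fn1 was found in 75.8% of thinned stromal-like cells, 29.9% of macrophage-like cells, 40.6% of monocyte-like cells and 5.02% of lymphocytes. The unthinned Fn1 shares were 95.1%, 50.5%, 66.8% and 13.1% in the same 4 classes.

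Fn1 had 376 ± 235 CPM in macrophage-like cells (SD, n = 16 mice) and 620 ± 350 in monocyte-like cells (n = 15), against 28.9 ± 12.2 in lymphocytes (n = 15). Within macrophage-like cells its pooled level ran from 659 CPM in the largest of the 4 clusters down to 29.7 in another. The 3 monocyte-like clusters had 777, 285 and 211 CPM. Neutrophil-like cells had 48.7 ± 56.3 CPM (n = 14).

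Thbs1, which encodes thrombospondin-1, a glycoprotein released by platelets and myeloid cells that also activates latent TGF-beta (gene on chromosome 2, 118111876 to 118127133), had 41.9 ± 29.0 CPM in stromal-like cells, 97.2 ± 60.6 in macrophage-like cells (n = 16), 575 ± 250 in monocyte-like cells (n = 15) and 659 ± 610 in neutrophil-like cells (n = 14). The monocyte-like mean was 1043 CPM with another hashtag rule, by which a barcode goes to its best hashtag by a margin. Its highest level was in an unnamed cluster of 439 cells led by Inhba, at 2490 ± 1500 CPM (n = 7 mice with at least 20 such cells). In cells thinned to 2000 gene UMIs, Thbs1 was found in 5.70% of stromal-like, 12.9% of macrophage-like, 33.3% of monocyte-like, 17.3% of neutrophil-like and 52.8% of Inhba-led cells, against 1.39% of lymphocytes. One monocyte-like cluster had 903 CPM and the others 166 and 172. The Inhba-led cluster took 19.4% of the cells of floxed anti-PD-1 mouse 1, and between 0.247% and 5.97% in the other mice.

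Lamc1, the laminin gamma-1 chain, had 52.7 ± 11.5 CPM in regulatory T-like cells (n = 9), against 109 ± 21.4 in stromal-like cells and 15.3 ± 3.97 in all lymphocytes. Of its pooled UMIs, 6.35% were in regulatory T-like, 6.99% in macrophage-like and 6.69% in monocyte-like cells. After thinning to 2000 gene UMIs it was found in 18.6% of stromal-like and 12.5% of regulatory T-like cells, against 3.91% of lymphocytes. Lamb1 and Lama4, the chains it pairs with in laminin trimers, had over 90% of their UMIs in stromal-like cells. Loxl2 had 48 of its 203 UMIs in mast or basophil-like cells.

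The tests compared conditions over mice. UMIs were summed per mouse and class and tested by edgeR's quasi-likelihood test with pool as a covariate, over all genes that passed the filter, in 5 comparisons per class. These were LysM-Cre against floxed mice under anti-PD-1 and under isotype, anti-PD-1 against isotype in LysM-Cre and in floxed mice, and the interaction, which is the difference of the 2 treatment effects. The filter kept 34 of the 35 genes in stromal-like cells, 8 in macrophage-like cells and 8 in monocyte-like cells, Loxl2 being the one lost in stromal-like cells.

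None of the 250 tests of the 35 genes passed an adjusted p of 0.05 in edgeR's test, with 24 at an unadjusted p below 0.05 and 0.159 as the smallest adjusted p. DESeq2 on the same sums called 1, with no adjusted p for 20. The call was Thbs1 for genotype under anti-PD-1 in monocyte-like cells, a comparison in which DESeq2 called 1.03% of 8263 genes. Over all genes and the 15 comparisons edgeR made 16 calls and DESeq2 364. By edgeR, in stromal-like cells 0.0% of 10361 genes were called for genotype under anti-PD-1, 0.0% for genotype under isotype, 0.0% for anti-PD-1 in LysM-Cre mice, 0.029% for anti-PD-1 in floxed mice and 0.0% for the interaction. In macrophage-like cells, over 9941 genes, 0.0402% were called for anti-PD-1 in floxed mice and 0.0% in each of the other 4 comparisons. In monocyte-like cells, over 8263 genes, 0.0726% were called for genotype under anti-PD-1, 0.0121% for genotype under isotype, 0.0242% for anti-PD-1 in floxed mice and 0.0% in the other 2.

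At an unadjusted p below 0.05, the stromal-like counts were 5 of 34 genes for genotype under anti-PD-1, where 5.51% of all genes passed, 1 for genotype under isotype (2.94%), 6 for anti-PD-1 in LysM-Cre mice (8.05%), 4 for anti-PD-1 in floxed mice (8.5%) and 2 for the interaction (3.67%). In macrophage-like cells the counts over 8 genes were 0 for genotype under anti-PD-1 (12.7%), 0 for genotype under isotype (2.55%), 1 for anti-PD-1 in LysM-Cre mice (3.75%), 0 for anti-PD-1 in floxed mice (14.7%) and 0 for the interaction (6.75%). In monocyte-like cells they were 2 for genotype under anti-PD-1 (11.7%), 1 for genotype under isotype (4.31%), 1 for anti-PD-1 in LysM-Cre mice (3.46%), 1 for anti-PD-1 in floxed mice (10.0%) and 0 for the interaction (6.14%). With at most 6 genes behind each count, none of these shares is read as particular to the 35 genes.

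The estimates of the 34 genes in stromal-like cells leaned towards lower values in LysM-Cre mice. Under anti-PD-1, 8 had an estimate above 0 and 26 below, with a median log2 fold change of −0.27 against 0.00 over all genes. Under isotype, 4 were above 0 and 30 below, with a median of −0.19 against 0.01 over all genes. The 35 genes are not independent of each other, and the median standard error of a single estimate lay between 0.25 and 0.29. For anti-PD-1 against isotype the medians were −0.02 in LysM-Cre mice, with 15 above 0 and 19 below, and 0.02 in floxed mice, with 18 above and 16 below.

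Mgp had 17916, 18780, 19077 and 16478 CPM in stromal-like cells of LysM-Cre anti-PD-1 mice, against 10241, 12255 and 12956 CPM in floxed anti-PD-1 mice. Isotype mice had 16044, 13560, 14864 and 8090 CPM in the LysM-Cre group and 8055, 7698, 17591 and 20773 CPM in the floxed group. All 4 LysM-Cre anti-PD-1 mice lay above the 3 floxed anti-PD-1 mice, while the isotype groups overlapped. Mice 1 and 2 of each group were in pool E5 and mice 3 and 4 in pool E6. With no overlap over all mice, the same order within each pool is given and adds no support. The log2 fold change between genotypes was 0.63 ± 0.30 (SE) under anti-PD-1 (edgeR, adjusted p = 0.836) and 0.06 ± 0.28 under isotype, and neither passed the test. Sub-cluster 3, where Mgp was highest, held 52 of the 156 stromal-like cells of LysM-Cre anti-PD-1 mice, 14 of 105 in floxed anti-PD-1 mice, 26 of 249 in LysM-Cre isotype mice and 40 of 459 in floxed isotype mice. The counts pool cells over mice, and 25 of the 52 came from LysM-Cre anti-PD-1 mouse 4. The part of this make-up in the Mgp values was not tested.

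Postn had 186, 24.2, 68.6 and 132 CPM in the LysM-Cre anti-PD-1 mice, against 453, 279, 196 and 239 CPM in LysM-Cre isotype mice. In floxed mice it had 313, 177 and 77.7 CPM under anti-PD-1, against 507, 524, 227 and 271 CPM under isotype. The LysM-Cre groups did not overlap, and the floxed groups did. Its log2 fold change for anti-PD-1 was −1.45 ± 0.43 (SE) in LysM-Cre mice (edgeR, unadjusted p = 0.00384, adjusted p = 0.471) and −0.85 ± 0.45 in floxed mice (adjusted p = 0.622), and the interaction was −0.60 ± 0.61 (adjusted p = 0.9999). The Kif26b-led sub-cluster, where Postn was highest, held 6 of the 156 stromal-like cells of LysM-Cre anti-PD-1 mice, 12 of 105 in floxed anti-PD-1 mice, 54 of 249 in LysM-Cre isotype mice and 137 of 459 in floxed isotype mice. The counts pool cells over mice, and 87 of the 137 came from floxed isotype mouse 2. The part of this make-up in the Postn values was not tested.

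Col6a3 had 464, 393, 265 and 294 CPM in the LysM-Cre anti-PD-1 mice, against 641, 373 and 474 CPM in floxed anti-PD-1 mice. Isotype mice had 328, 273, 259 and 268 CPM in the LysM-Cre group and 325, 350, 272 and 458 in the floxed group. Over both pools the groups overlapped in each comparison. Within each pool all LysM-Cre anti-PD-1 values lay below the floxed anti-PD-1 values (464 and 393 against 641 CPM in E5, 265 and 294 against 373 and 474 in E6). The log2 fold change was −0.59 ± 0.20 (SE) between genotypes under anti-PD-1 (edgeR, unadjusted p = 0.0103, adjusted p = 0.836; it was −0.39 under the alternative hashtag calls) and 0.57 ± 0.20 for anti-PD-1 in floxed mice (adjusted p = 0.445).

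Eln had 7.99, 8.76 and 3.24 CPM in floxed anti-PD-1 mice, against 20.4, 22.6, 18.5 and 60.5 CPM in floxed isotype mice. In LysM-Cre mice it had 32.3, 6.06, 0.858 and 21.8 CPM under anti-PD-1, against 35.7, 12.1, 15.2 and 22.5 under isotype. The floxed groups did not overlap, and the LysM-Cre groups did. The log2 fold change was −2.08 ± 0.75 (SE) in floxed mice (edgeR, unadjusted p = 0.0144, adjusted p = 0.477) and −0.56 ± 0.67 in LysM-Cre mice (adjusted p = 0.891). Without floxed isotype mouse 4, which had the 60.5 CPM, the value in floxed mice was −1.35.

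**Figure D4:**
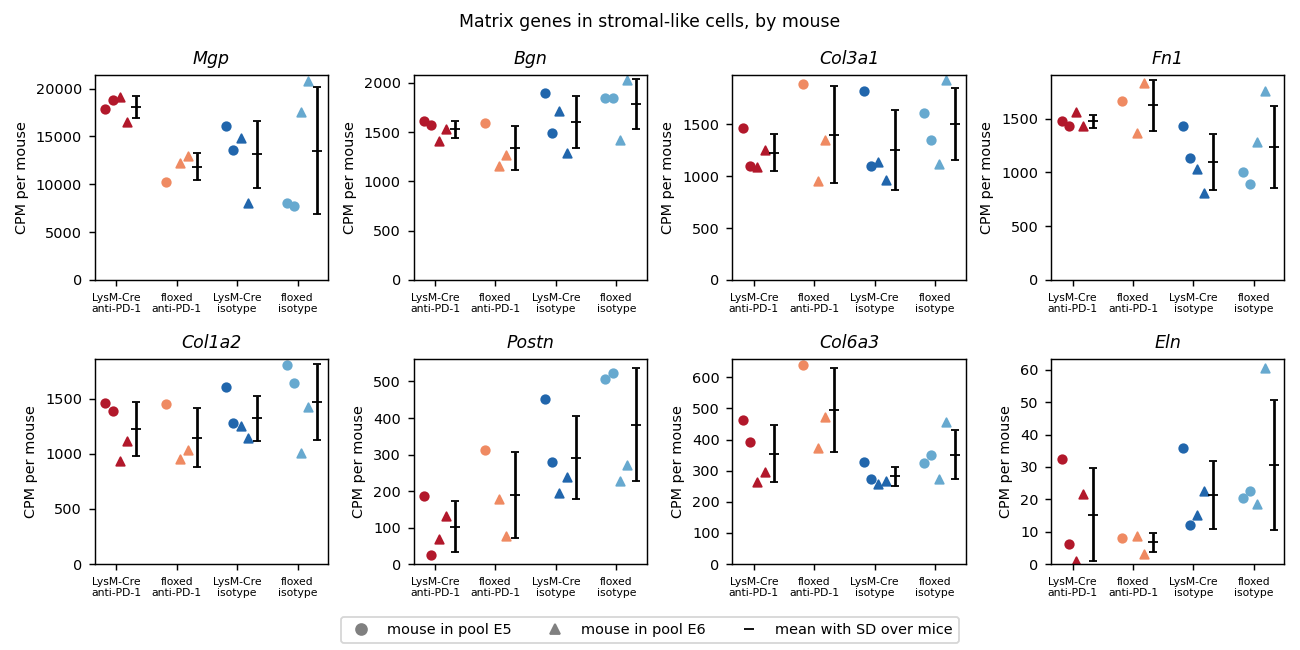
CPM in stromal-like cells per mouse for 8 genes, by condition, with circles for pool E5, triangles for pool E6 and bars for the mean ± SD. Mgp lies at 16478 to 19077 CPM in the LysM-Cre anti-PD-1 mice, above the 10241 to 12956 CPM of floxed anti-PD-1 mice, and Postn at 24.2 to 186 CPM, below the 196 to 453 CPM of LysM-Cre isotype mice.

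Bgn, Col3a1 and Col1a2 overlapped between conditions. Bgn had 1609, 1569, 1410 and 1531 CPM in the LysM-Cre anti-PD-1 mice, 1591, 1157 and 1270 in floxed anti-PD-1 mice, 1895, 1491, 1716 and 1290 in LysM-Cre isotype mice and 1843, 1841, 1424 and 2024 in floxed isotype mice. Col3a1 had 1468, 1095, 1089 and 1254 CPM, 1892, 957 and 1351, 1823, 1095, 1141 and 964, and 1605, 1353, 1118 and 1927 CPM in the same 4 groups. Col1a2 had 1462, 1387, 930 and 1115 CPM in the LysM-Cre anti-PD-1 mice, 1447, 954 and 1038 in floxed anti-PD-1 mice, 1609, 1279, 1255 and 1139 in LysM-Cre isotype mice and 1806, 1644, 1009 and 1423 in floxed isotype mice. For these genes the log2 fold changes lay between −0.33 and 0.12 across the 4 comparisons between groups, with the −0.33 ± 0.15 (SE) of Bgn for anti-PD-1 in floxed mice at an adjusted p of 0.564 in edgeR's test.

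Fn1 had 1474, 1431, 1564 and 1430 CPM in stromal-like cells of LysM-Cre anti-PD-1 mice, against 1428, 1131, 1028 and 805 in LysM-Cre isotype mice. Under anti-PD-1 floxed mice had 1666, 1369 and 1832 CPM, against 1008, 894, 1279 and 1753 under isotype. All LysM-Cre anti-PD-1 values lay above the LysM-Cre isotype values and the floxed groups overlapped. The log2 fold changes for anti-PD-1 were 0.41 ± 0.21 (SE) in LysM-Cre mice and 0.45 ± 0.22 in floxed mice (edgeR, adjusted p = 0.648 and 0.605). The Il11-led sub-cluster, where Fn1 was highest, held 32 of the 156 stromal-like cells of LysM-Cre anti-PD-1 mice, 41 of 105 in floxed anti-PD-1 mice, 24 of 249 in LysM-Cre isotype mice and 33 of 459 in floxed isotype mice. The counts pool cells over mice, and 23 of the 41 came from floxed anti-PD-1 mouse 3. The part of this make-up in the Fn1 values was not tested.

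Collagen IV and Timp3 had lower estimates under anti-PD-1 in both genotypes, without passing the test. Col4a2 had 11.4, 7.27, 10.3 and 39.7 CPM in the LysM-Cre anti-PD-1 mice, 43.1, 22.8 and 3.24 in floxed anti-PD-1 mice, 64.0, 30.01, 41.5 and 49.0 in LysM-Cre isotype mice and 68.4, 76.1, 35.2 and 64.6 in floxed isotype mice. For anti-PD-1 the log2 fold change of Col4a2 was −1.32 ± 0.53 (SE) in LysM-Cre and −1.39 ± 0.54 in floxed mice, with edgeR's adjusted p at 0.558 and 0.506. The partner gene Col4a1 had −1.47 ± 0.67 and −1.34 ± 0.71 (adjusted p = 0.610 and 0.622), and Timp3 −1.19 ± 0.45 and −1.05 ± 0.50 (adjusted p = 0.530 and 0.587). The Kif26b-led sub-cluster was also where Col4a1 (282 CPM) and Timp3 (737 CPM) were highest, and the part of its cell numbers was not tested.

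Tnc, the tenascin-C gene, had 19.0, 4.85, 6.01 and 6.62 CPM in the LysM-Cre anti-PD-1 mice, 19.2, 57.8 and 22.7 in floxed anti-PD-1 mice, 11.9, 191, 5.53 and 2.72 in LysM-Cre isotype mice and 29.7, 3.48, 2.54 and 45.4 in floxed isotype mice. The LysM-Cre anti-PD-1 values all lay below those of floxed anti-PD-1 mice, with a log2 fold change of −2.49 ± 1.46 (SE, adjusted p = 0.836 in edgeR's test). Lamc1 had 126, 113, 75.5 and 95.6 CPM, 134, 99.3 and 110, 152, 82.4, 95.8 and 88.4, and 131, 118, 90.8 and 119 CPM in the same 4 groups, which overlapped. Thbs1 in stromal-like cells had 30.4, 78.8, 16.3 and 94.6 CPM, 67.1, 33.9 and 17.3, 11.9, 25.5, 16.1 and 20.7, and 63.0, 10.3, 76.7 and 66.1 CPM in those groups, with a log2 fold change of 1.52 ± 0.62 (SE) for anti-PD-1 in LysM-Cre mice (adjusted p = 0.569).

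Summed markers of other cells in the stromal-like cluster are given by condition without a test, and their spreads mostly overlapped. The summed macrophage markers had 2517 ± 1413 CPM in the LysM-Cre anti-PD-1 mice (SD, n = 4), 968 ± 469 in floxed anti-PD-1 mice (n = 3), 2759 ± 997 in LysM-Cre isotype mice (n = 4) and 1752 ± 1342 in floxed isotype mice (n = 4), and the summed T and NK cell markers 161 ± 113, 138 ± 80.6, 219 ± 137 and 118 ± 62.5 CPM. The summed melanocyte markers had 25.7 ± 8.70, 24.7 ± 4.17, 13.8 ± 3.36 and 17.1 ± 9.96 CPM in these groups, with Mitf as the most abundant, and the endothelial markers 3.86 ± 1.62, 7.08 ± 2.78, 16.3 ± 15.6 and 11.05 ± 13.8 CPM, led by Egfl7. Dissociation-stress genes were at 5157 ± 2895, 4845 ± 160, 5859 ± 1635 and 4917 ± 1661 CPM. The share of stromal-like cells with a Y-linked UMI also varied by mouse, from 10.8% to 74.7% as given above. The part of all these values in the results was not tested. Without the 2 sub-clusters of immune RNA, again 0 of the 35 genes were called in each of the 5 stromal-like comparisons by edgeR's test.

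In macrophage-like cells, Fn1 had 315, 176, 208 and 248 CPM in the LysM-Cre anti-PD-1 mice, 278, 747, 148 and 255 in floxed anti-PD-1 mice, 647, 137, 101 and 726 in LysM-Cre isotype mice and 225, 705, 502 and 599 in floxed isotype mice. All 4 groups overlapped, and the log2 fold changes were −0.77 ± 0.57 (SE) for anti-PD-1 in LysM-Cre mice and −0.56 ± 0.57 in floxed mice (edgeR, adjusted p = 0.9999 and 0.681). Thbs1 had 51.7, 50.7, 65.8 and 88.5 CPM in the LysM-Cre anti-PD-1 mice, 41.1, 59.8, 106 and 73.5 in floxed anti-PD-1 mice, 238, 52.7, 91.1 and 120 in LysM-Cre isotype mice and 59.3, 71.7, 161 and 224 in floxed isotype mice. These overlapped too, with a log2 fold change of −1.02 ± 0.41 (SE) for anti-PD-1 in LysM-Cre mice (unadjusted p = 0.0251, adjusted p = 0.9999) that ran from −1.25 to −0.23 when 1 mouse at a time was left out. The −0.23 came without LysM-Cre isotype mouse 1, which had the 238 CPM, and with the 35 genes kept in the clustering the value was −0.27.

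The other abundant genes of macrophage-like cells were low. Mgp had 68.0, 52.7, 102 and 133 CPM in the LysM-Cre anti-PD-1 mice, 51.7, 54.6, 190 and 96.3 in floxed anti-PD-1 mice, 81.3, 66.4, 146 and 90.9 in LysM-Cre isotype mice and 67.1, 55.7, 135 and 139 in floxed isotype mice. In each group the mice numbered 3 and 4, which belong to pool E6, were higher on average than those numbered 1 and 2, which belong to E5. Bgn lay between 7.60 and 15.8 CPM, Col3a1 between 4.61 and 10.4, Col1a2 between 2.03 and 14.0 and Sparc between 2.10 and 14.8 CPM over the 16 mice. Their log2 fold changes for anti-PD-1 in LysM-Cre mice were −0.29 ± 0.23 (Bgn), −0.38 ± 0.23 (Col3a1), −0.74 ± 0.39 (Col1a2) and −0.66 ± 0.40 (Sparc), in SE, each with an adjusted p of 0.9999 in edgeR's test. With the other hashtag rule Sparc turned to 0.28 and Col1a2 was −0.10, and without LysM-Cre isotype mouse 1 they were −0.26 and −0.43.

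Monocyte-like cells gave the smallest adjusted p of the 250 tests, for Thbs1. It had 576, 440, 310 and 397 CPM in the LysM-Cre anti-PD-1 mice, against 1132, 885 and 786 CPM in floxed anti-PD-1 mice. In isotype mice it had 615, 212, 234 and 687 CPM in the LysM-Cre group, against 753, 504, 577 and 511 CPM in the floxed group. The anti-PD-1 groups did not overlap, and the isotype groups did. The log2 fold change between genotypes was −1.21 ± 0.33 (SE) under anti-PD-1, with an unadjusted p of 0.00203 and an adjusted p of 0.159 in edgeR's test and an adjusted p of 0.0489 in DESeq2, and −0.41 ± 0.31 under isotype (edgeR, adjusted p = 0.964). The interaction was −0.79 ± 0.45 (adjusted p = 0.813).

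The Thbs1 difference depended on which cells were counted as monocyte-like. Its log2 fold change was −0.39 with the other hashtag rule and −0.44 when the 35 genes were kept in the clustering, and −0.60 with the Cxcl9-led and Inhba-led clusters added, an alternative chosen after the data were seen. The monocyte-like cluster with most Thbs1 made up 39.9% ± 12.3 of monocyte-like cells in LysM-Cre anti-PD-1 mice (SD, n = 4) and 64.4% ± 16.3 in floxed anti-PD-1 mice (n = 3). Within that cluster Thbs1 had 738 ± 175 CPM in the LysM-Cre anti-PD-1 mice (n = 3 with at least 20 cells) and 1303 ± 188 in floxed anti-PD-1 mice (n = 3). A gap in the same direction was present there under isotype, with 714 ± 238 CPM in LysM-Cre (n = 3) and 1164 ± 518 in floxed mice (n = 4). In the Inhba-led cluster the order under anti-PD-1 was the other way, with 1931 ± 1202 CPM in LysM-Cre and 1334 ± 363 in floxed mice (n = 2 each). Dissociation-stress genes summed to 5962 ± 1748 CPM in monocyte-like cells of LysM-Cre anti-PD-1 mice and 9389 ± 2944 in floxed anti-PD-1 mice, and macrophage markers to 10030 ± 2704 and 6109 ± 2016 CPM. The part of these in the Thbs1 values was not tested.

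**Figure D5:**
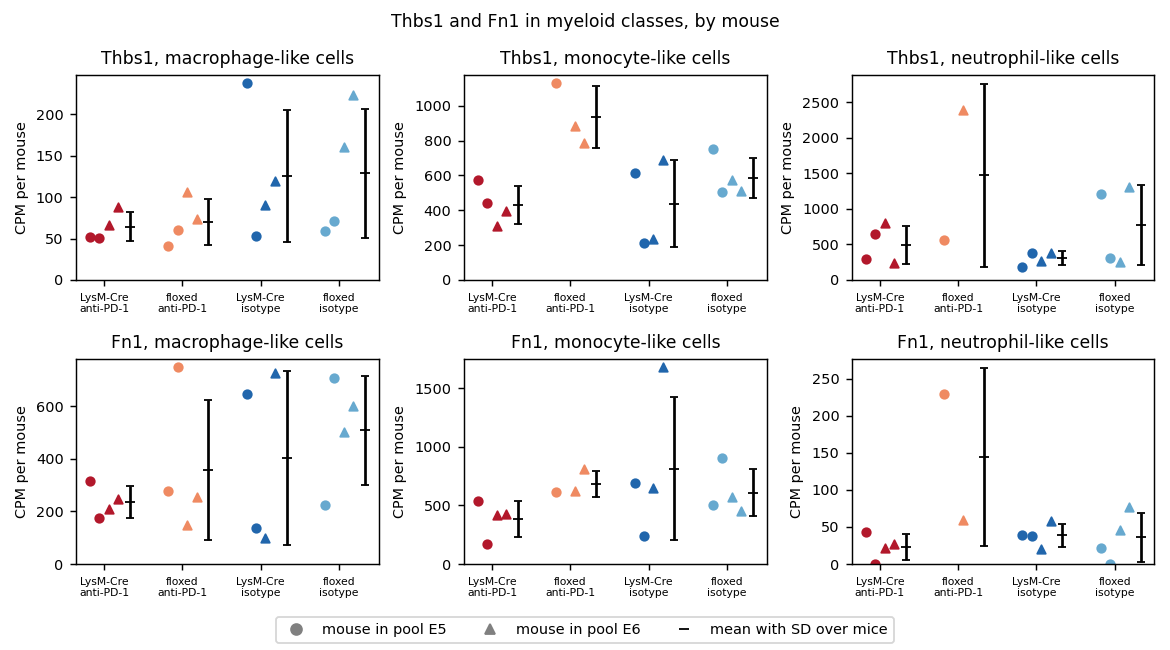
CPM of Thbs1 and Fn1 per mouse in macrophage-like, monocyte-like and neutrophil-like cells, by condition, with circles for pool E5, triangles for pool E6 and bars for the mean ± SD. Thbs1 in monocyte-like cells lies at 310 to 576 CPM in the LysM-Cre anti-PD-1 mice, below the 786 to 1132 CPM of floxed anti-PD-1 mice.

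Fn1 in monocyte-like cells had 537, 171, 419 and 425 CPM in the LysM-Cre anti-PD-1 mice, against 695, 238, 645 and 1678 CPM in LysM-Cre isotype mice. Floxed mice had 616, 624 and 810 CPM under anti-PD-1, against 505, 903, 573 and 453 under isotype. Both pairs of groups overlapped. The log2 fold change for anti-PD-1 was −1.01 ± 0.41 (SE) in LysM-Cre mice (unadjusted p = 0.0257, adjusted p = 0.99997 in edgeR's test) and 0.12 ± 0.44 in floxed mice. The value in LysM-Cre mice was −0.44 without LysM-Cre isotype mouse 4, which had the 1678 CPM, and −0.37 with the other hashtag rule.

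Mgp in monocyte-like cells had 73.2, 87.5, 117 and 285 CPM in the LysM-Cre anti-PD-1 mice, 64.1, 98.2 and 120 in floxed anti-PD-1 mice, 71.9, 73.7, 158 and 97.9 in LysM-Cre isotype mice and 66.5, 63.3, 142 and 122 in floxed isotype mice. The groups overlapped and the log2 fold change between genotypes under anti-PD-1 was 0.63 ± 0.26 (SE, edgeR, adjusted p = 0.348). Without LysM-Cre anti-PD-1 mouse 4, whose 285 CPM is the highest value, it was 0.22, and with the other hashtag rule 0.32. Summed stromal markers in the monocyte-like cells were at 23.6 ± 6.38 CPM in the LysM-Cre anti-PD-1 mice (SD, n = 4) and 12.9 ± 4.81 in floxed anti-PD-1 mice (n = 3), and their part was not tested. Bgn lay between 5.88 and 19.9 CPM and Col3a1 between 4.07 and 13.5 CPM over 15 mice. In neutrophil-like cells, which were not tested, Thbs1 had 297, 645, 796 and 245 CPM in the LysM-Cre anti-PD-1 mice, 566 and 2384 in the 2 floxed anti-PD-1 mice with at least 20 such cells, 181, 380, 269 and 384 in LysM-Cre isotype mice and 1208, 313, 259 and 1304 in floxed isotype mice.

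Genes that act on the matrix or answer to it were examined as 3 lists: the TGF-beta pathway, collagen processing and matrix receptors. Of the 19 TGF-beta genes 18 were tested in stromal-like, 11 in macrophage-like and 8 in monocyte-like cells, of the 16 collagen processing genes 15, 9 and 7, and of the 22 receptors 20, 13 and 14. None was called in edgeR's test in any of the 15 comparisons, with 69 of 575 tests (12%) at an unadjusted p below 0.05. The share over all genes was 6.77%, with each comparison weighted by the number of list genes tested in it. DESeq2 made 5 calls in the lists. The gene nearest to the threshold was Itga6, an integrin chain that pairs into laminin receptors, with a log2 fold change of −1.47 for anti-PD-1 in floxed mice in monocyte-like cells (adjusted p = 0.0714). DESeq2 called Itgb5 (log2 fold change −0.83 for anti-PD-1 in floxed mice), Itga6 and Ltbp2 (1.20 and 1.75 for anti-PD-1 in LysM-Cre mice) in stromal-like cells, and P4hb for anti-PD-1 in floxed mice in macrophage-like (0.38) and monocyte-like cells (0.44). In these 4 comparisons DESeq2 called 0.261%, 0.0965%, 1.49% and 0.629% of all genes.

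The collagen processing genes most abundant in stromal-like cells were Ppib, a proline isomerase of the collagen-folding machinery, at 730 ± 49.2 CPM, P4hb, a subunit of prolyl 4-hydroxylase, at 293 ± 20.2, and Pcolce, an enhancer of procollagen cleavage, at 264 ± 41.8 (SD, n = 15). Those of the TGF-beta list were Tgfbi at 329 ± 102, Ccn1 at 252 ± 90.4 and Ltbp1 at 142 ± 26.4, and those of the receptors were Itgb1 at 459 ± 45.8, Cd47, a receptor of thrombospondin-1, at 301 ± 55.4 and Sdc4 at 292 ± 77.4 CPM. Tgfbi, a secreted collagen-binding protein, was higher outside the stromal-like cells, at 1610 ± 336 CPM in macrophage-like and 2192 ± 426 in monocyte-like cells. The ligand gene Tgfb1 had 44.9 CPM in stromal-like, 263 in macrophage-like and 376 in monocyte-like cells.

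The share of stromal-like cells among a mouse's cells, the class that held most of the UMIs of the 35 genes, was 6.25% ± 1.25 in LysM-Cre anti-PD-1 mice, 4.83% ± 2.66 in floxed anti-PD-1 mice, 5.45% ± 3.26 in LysM-Cre isotype mice and 7.35% ± 3.52 in floxed isotype mice (SD, n = 4 each). These shares follow a sort for CD45, so they are not shares of the tumour. Two-sided exact permutation tests gave p = 0.400 for genotype under anti-PD-1, 0.457 for genotype under isotype, 0.714 for anti-PD-1 in LysM-Cre mice and 0.314 for anti-PD-1 in floxed mice, with 0.610, 0.610, 0.714 and 0.610 after adjustment over the 4 tests and 0.0286 as the smallest p the design allows. Exact permutations within pools gave p = 0.222, 0.556, 0.611 and 0.389. Without LysM-Cre isotype mouse 2 the difference of anti-PD-1 from isotype in LysM-Cre mice was −0.212 percentage points, against 0.798 with all mice.

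The share was also set against the level of the matrix genes in macrophage-like cells over the 16 mice, in 8 relations. For all 35 genes Pearson's r was 0.0184 (permutation p = 0.945) and Spearman's rho 0.0412 (permutation p = 0.882). For the 31 genes with over 90% of their UMIs in stromal-like cells, r was 0.401 (permutation p = 0.124, adjusted p = 0.495) and rho 0.474 (permutation p = 0.0647, adjusted p = 0.259). Without the 2 mice farthest from the median share, r was 0.525 and rho 0.556 for the 31 genes (permutation p = 0.0532 and 0.0423, the second 0.259 after adjustment). Within pools r was 0.0988 and rho 0.262 in E5, and r was 0.276 and rho 0.452 in E6, with permutation p between 0.268 and 0.804. None of the 8 relations passed after adjustment.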

How the data were processed

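Each pool was deposited as raw UMI counts per barcode for 32285 genes and, per the labels, antibody and hashtag tags. The file headers name Cell Ranger 6.1.2, the submitters' processing notes version 3.0.1 and the mm10 build. Antibody counts of 88 proteins were in the files, where the labels state 89. Barcodes with at least 500 gene UMIs, 200 genes and at most 10% mitochondrial UMIs were kept (13914 in E5, 14515 in E6). Hashtags were called with Seurat 5.3.0 (HTODemux, quantile 0.99), and barcodes with several or no hashtag were left out. Hashtags 8 and 9 are printed with the same sequence in the labels, so they were told apart by their names in the files alone. Cells were clustered with scanpy 1.11.5 (2000 variable genes without the 35 genes and their companion lists, 30 components, 15 neighbours, Leiden resolution 1), with resolution 0.5 for sub-clusters. Naming a cluster took 3 or more markers of a list in 10% of its cells and an average log2 fold over other cells of 1 or more, which left 8 of 31 clusters and 14.8% of the cells unnamed.

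Counts were summed per mouse and class with at least 20 cells and tested by the quasi-likelihood method of edgeR 4.0.16 (TMM scaling, low counts removed by filterByExpr, pool as covariate, Benjamini-Hochberg adjustment over all genes tested) in R 4.3.3, for classes with at least 3 such mice per condition. DESeq2 1.42.0 was an alternative. The test script was tested on simulated data. CPM are UMIs per 1000000 gene UMIs of the class in a mouse. Pairwise values across cells were log-scaled per cell depth. Permutation tests over mice used all arrangements for shares and 100000 draws for correlations. Intervals and spreads cover sampling of UMIs and mice only, and mice are the replicates.

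Per-mouse values are given for the 5 genes with the highest mean CPM per tested class, the 5 with at least 500 UMIs and the largest share outside stromal-like cells, and, as no gene passed the test, the 3 with the smallest unadjusted p per class. Of the companion lists the 3 most abundant genes in stromal-like cells are named. One leading gene of a sub-cluster is not reported here. Col4a1, Timp3 and Itga6 were named after their values were seen. The 35 genes, lists and tests were chosen with earlier results of these data known. Alternatives were DESeq2, other size factors, no filter, no pool covariate, another hashtag rule (best hashtag by a margin of 1), Scrublet doublets left out (the 10% of each pool with the highest scores), the 35 genes kept in the clustering, thinning to 1000 UMIs and leaving out each mouse.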

Additional observations from a re-analysis of the deposited data

Results flagged for a closer look

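Of 96 groups of 4 mice examined for a mouse far from the others, 4 were flagged, and chance flags about 1 in 20. Col4a2 in stromal-like cells was 39.7 CPM in LysM-Cre anti-PD-1 mouse 4, where the other 3 mice of the group had 7.27 to 11.4 CPM. Eln was 60.5 CPM in floxed isotype mouse 4, where the others had 18.5 to 22.6. Tnc was 19.0 CPM in LysM-Cre anti-PD-1 mouse 1, where the others had 4.85 to 6.62, and 191 CPM in LysM-Cre isotype mouse 2, where the others had 2.72 to 11.9.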

How the results depend on the processing

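The count of the 35 genes called by edgeR stayed at 0 to 0 in all 15 comparisons when each mouse was left out in turn, and also with other size factors, no pool covariate, the other hashtag rule, Scrublet doublets left out and the 35 genes kept in the clustering. It was 0 as well without barcodes found in both pools, without the sub-clusters with immune RNA and with the Cxcl9-led and Inhba-led clusters, alternatives chosen after the data were seen. DESeq2 called 1 gene, Thbs1, for genotype under anti-PD-1 in monocyte-like cells. In that comparison DESeq2 called 85 of 8263 genes and edgeR 6. Without a filter on low counts the calls among the 35 genes in stromal-like cells were 7 and 2 for genotype under anti-PD-1 and under isotype (1.47% and 0.679% of all 18862 genes), 11 and 10 for anti-PD-1 in LysM-Cre and in floxed mice (1.87% and 2.14%) and 4 for the interaction (0.668%). In macrophage-like cells they were 1 for genotype under anti-PD-1 (2.04% of 18378 genes) and 2 each for anti-PD-1 in LysM-Cre (0.865%) and in floxed mice (3.15%). In monocyte-like cells they were 3 for genotype under anti-PD-1 (1.48% of 17597 genes), 1 each for anti-PD-1 in LysM-Cre (0.284%) and in floxed mice (1.6%) and 2 for the interaction (0.568%). The cause was not tested.

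Leaving out 1 mouse moved log2 fold changes between −1.80 and −1.05 for Postn, −0.72 and −0.44 for Col6a3 (genotype under anti-PD-1), −2.43 and −1.35 for Eln (floxed mice), and, in macrophage-like cells, −1.25 and −0.23 for Thbs1, −0.97 and −0.43 for Col1a2 and −0.92 and −0.26 for Sparc. In monocyte-like cells the ranges were −1.33 to −1.07 for Thbs1 and 0.22 to 0.83 for Mgp, both between genotypes under anti-PD-1, and −1.35 to −0.44 for Fn1. Sparc in macrophage-like cells turned to 0.28 with the other hashtag rule. The stromal-like share differed between genotypes by 0.551 to 2.39 percentage points under anti-PD-1 and −3.42 to −0.688 under isotype, and between treatments by −0.212 to 2.32 in LysM-Cre and −3.97 to −1.31 in floxed mice. The value of −0.212 came without LysM-Cre isotype mouse 2. Thbs1 in monocyte-like cells was 1043 CPM with the other hashtag rule, against 575.

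Thinning to 1000 in place of 2000 gene UMIs gave shares of 86.6% for Mgp in stromal-like cells, 21.2% and 27.9% for Fn1 in macrophage-like and monocyte-like cells, 24.1% and 13.5% for Thbs1 in monocyte-like and neutrophil-like cells and 6.47% for Lamc1 in regulatory T-like cells. The filter on low counts left 8 of the matrix genes to test in macrophage-like cells and 8 in monocyte-like cells. These classes had 44295750 and 33880562 gene UMIs, against 27551650 in stromal-like cells. No paired analysis was possible because mice of different conditions share no replicate numbers in the labels, and pool was already a covariate.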
